A study of Mus musculus with 7 samples.

Results

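The heat shock proteins of striated muscle described here are 10 genes measured by 14 probes, taken from 56605 distinct non-control probes on each array. They were chosen by name, as every non-control probe that the scanner files assign to Hspa1a, Hspa1b, Hsph1, Dnajb1, Bag3, Hspb1, Cryab, Hspb6, Hspb7 or Hspb8. RNA from the hearts of adult female mice was hybridised to 7 one-colour arrays, 4 of knockout and 3 of wild type samples. The 4 knockout samples, titled Mutant_175, Mutant_182, Mutant_187 and Mutant_188, carried a transgene and received tamoxifen. Per the design text, the transgene is a tamoxifen-inducible Cre driven by a myosin heavy chain promoter, which deletes Brg1 in adult heart muscle cells of animals that lack Brm. Brg1, encoded by Smarca4, and Brm, encoded by Smarca2, are alternative ATPases of the SWI/SNF chromatin remodelling complexes. The 3 wild type samples, Wild Type_181, Wild Type_183 and Wild Type_189, lacked the transgene and had tamoxifen as well. Whether they carry Brm is not stated, so the parts played by Brg1, Brm and the transgene cannot be told apart. Cardiomyocytes are the labelled cell type, but the RNA came from heart with a tissue kit and no cell isolation step is described. Separate animals are not stated for the samples, and the p-values then cover only the spread between samples, which may be technical.

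Heat shock proteins are chaperones, which hold unfolded proteins and help them to fold again. HSP70 binds and releases its clients in a cycle driven by ATP. J-domain proteins such as Dnajb1 deliver clients and trigger the hydrolysis of ATP, and nucleotide exchange factors such as Hsph1 and Bag3 open HSP70 again. Small heat shock proteins use no ATP. They keep damaged proteins soluble, and in striated muscle they protect desmin, titin and other filaments that are strained at every beat. The heat shock factor HSF1 induces many of these genes by binding inverted repeats of GAA in their promoters.

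In knockout hearts the inducible HSP70 genes Hspa1a and Hspa1b were 15.2-fold and 6.34-fold higher. Of the small heat shock protein genes, Hspb1 was 2.35-fold and Hspb6 1.42-fold higher. Hsph1, Hspb8 and Dnajb1 were lower, by 2.60-fold, 1.56-fold and 1.36-fold. Bag3, Cryab and Hspb7 did not pass the threshold. Thus 4 members were called higher and 3 lower at an adjusted p under 0.05 (limma, Benjamini-Hochberg over 22976 genes). Over all genes 16.3% were called higher, 25.8% lower and 42.1% in either direction. All 14 probes, and so all 10 members, passed the filter on dim probes. The knockout and wild type arrays did not overlap for 9 of the 10 members, the exception being Hspb7, and did not overlap for 51.1% of all genes. The members' median log2 fold change was 0.38, against -0.12 over all genes tested.

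Values below are relative signals, the processed signal of a spot divided by the 75th percentile of its own array. Differences are log2 fold changes, knockout minus wild type, from limma. Knockout values are given for Mutant_175, Mutant_182, Mutant_187 and Mutant_188 and wild type values for Wild Type_181, Wild Type_183 and Wild Type_189, always in that order. Probe positions are those of the scanner files on mouse build mm9. An mm9 gene annotation was not used here, so exons and untranslated regions are not assigned.

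**Figure D1:**
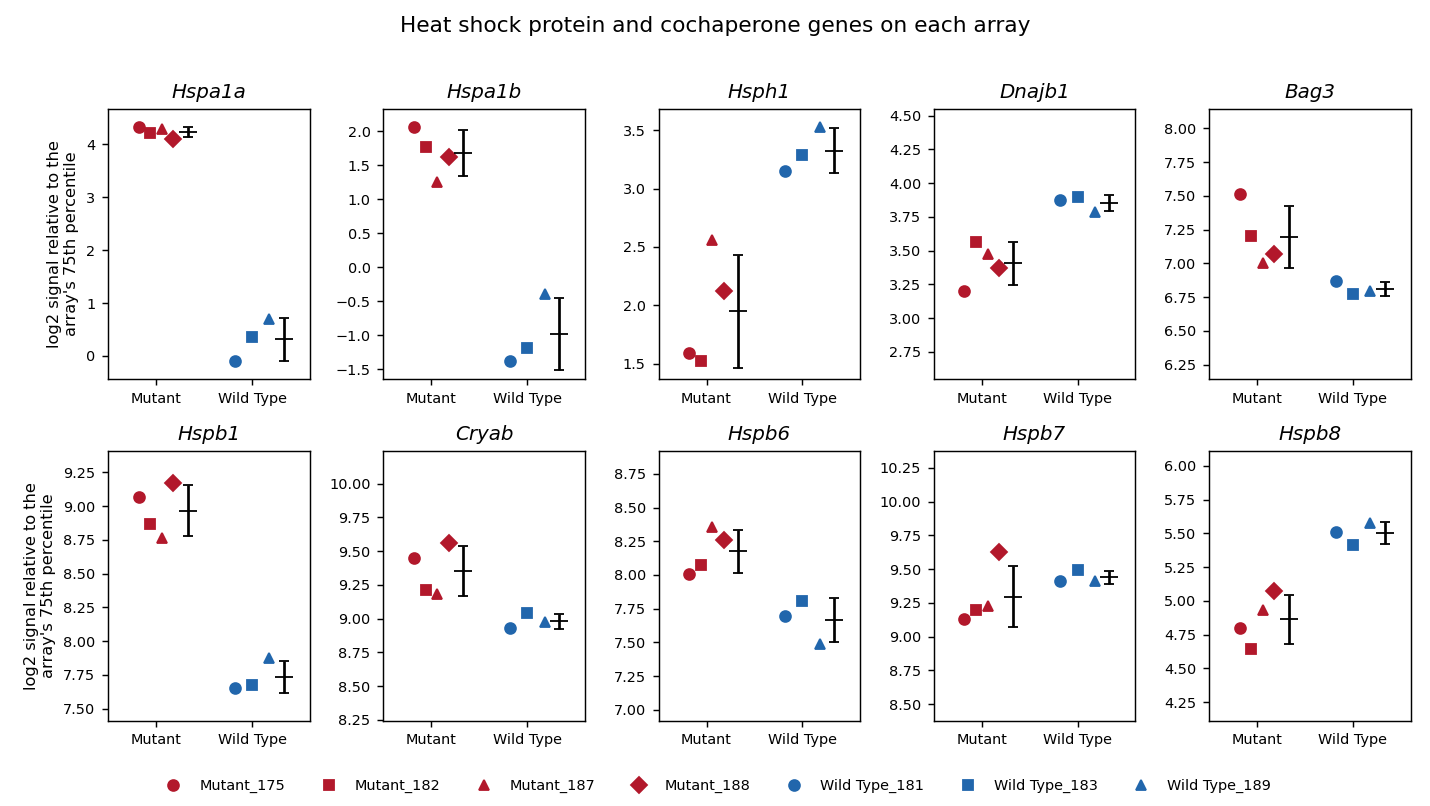
Log2 signal relative to the 75th percentile of the array for the 10 genes, in 4 knockout (Mutant, red) and 3 wild type arrays (blue). Each symbol is 1 array, and the black bar gives the mean with its SD. Vertical ranges differ between panels. The groups are separate in every panel except Hspb7.

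Several facts of the whole set of arrays touch these values. Smarca4 had relative signals of 5.87, 10.3, 14.9 and 8.25 in knockout hearts, against 34.7, 32.8 and 34.2 in wild type hearts, and fell by 1.87 on the log2 scale (SE 0.29, adjusted p = 0.0021, limma). Smarca2 gave 0.08 (SE 0.11, adjusted p = 0.59, limma). Whether a probe lies in the deleted part of either gene is not known here. Between 58.1% and 63.6% of spots per array were well above background, and 0 non-control spots were saturated. All arrays lay on 1 slide, the knockout arrays in row 2 and the wild type arrays in row 1, so that slide row and genotype cannot be told apart. Of 12 cardiomyocyte markers 9 were lower and 1 higher, with a summed relative signal of 3070 to 3840 in knockout and 5840 to 6310 in wild type. Quantile normalization, normexp and spike-in scaling each gave 5 of these markers lower and 1 higher. The size of the cardiomyocyte difference thus depends on the scaling. The part of the scanner's ceiling in it was not tested. Of 10 fibroblast markers 9 were higher and 0 lower, with sums of 665 to 927 in knockout and 313 to 344 in wild type. Of 12 macrophage markers 8 were higher and 1 lower, with sums of 99.5 to 160 in knockout and 88.5 to 91.8 in wild type. Of 9 smooth muscle and pericyte markers 3 were higher and 1 lower, with sums of 448 to 545 in knockout and 128 to 138 in wild type. Acta2 alone carried this difference, at 381 to 465 in knockout and 33.4 to 44.8 in wild type, and the other 8 summed to 67.4 to 98.9 in knockout and 93.3 to 94.7 in wild type, which overlap. Of 10 endothelial markers 1 was higher and 3 lower, with sums of 119 to 179 in knockout and 155 to 159 in wild type. Of 5 lymphocyte markers measured 2 were higher and 0 lower, at 9.3 to 13.7 in knockout and 6.71 to 9.03 in wild type. Of 6 skeletal muscle markers measured 1 was higher and 3 lower, at 33.7 to 51.5 in knockout and 34.7 to 45.8 in wild type, and without the brightest, Acta1, at 3.43 to 5.15 in knockout and 18.1 to 20.2 in wild type. Leaving out the brightest marker of each of the other 5 lists kept the cardiomyocyte sum lower, the fibroblast, macrophage and lymphocyte sums higher and the endothelial sums overlapping. The defining markers Cd8a, Cd79a, Ms4a1, Myh1 and Myh2 did not pass the filter on dim probes. The part of these shifts in the changes of the heat shock genes was not tested, and in whole tissue fewer cells of a type and less RNA per cell cannot be told apart.

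Hspa1a and Hspa1b encode nearly identical inducible HSP70 proteins from adjacent genes. The upstream windows of both are shown because the genes moved together, and those of Hspb1, Hsph1, Dnajb1 and Hspb8 because they differ from them in direction, size or motif content. Each is the 250 bases before the annotated transcription start, from RefSeq on build GRCm38.p6, read 5′ to 3′ on the strand of the gene. Capitals mark the letters GAANNTTC or TTCNNGAA, a pair of inverted GAA units as heat shock factors bind them. Both patterns read the same on either strand.
Hspa1a, chr17:34972157-34972406, minus strand: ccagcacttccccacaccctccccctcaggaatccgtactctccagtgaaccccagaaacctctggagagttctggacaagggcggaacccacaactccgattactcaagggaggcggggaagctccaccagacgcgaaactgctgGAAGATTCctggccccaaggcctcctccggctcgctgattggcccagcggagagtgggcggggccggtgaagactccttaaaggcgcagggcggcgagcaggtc
Hspa1b, chr17:34959239-34959488, minus strand: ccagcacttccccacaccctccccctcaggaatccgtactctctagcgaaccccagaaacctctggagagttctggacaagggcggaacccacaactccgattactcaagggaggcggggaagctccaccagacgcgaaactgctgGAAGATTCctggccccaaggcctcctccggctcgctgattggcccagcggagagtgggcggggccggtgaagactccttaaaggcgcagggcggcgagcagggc
Hspb1, chr5:135887669-135887918, plus strand: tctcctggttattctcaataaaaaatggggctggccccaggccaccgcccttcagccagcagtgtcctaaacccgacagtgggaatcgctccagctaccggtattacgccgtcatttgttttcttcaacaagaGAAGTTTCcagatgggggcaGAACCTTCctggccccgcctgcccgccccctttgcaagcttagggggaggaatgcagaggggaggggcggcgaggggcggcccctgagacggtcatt
Hsph1, chr5:149636337-149636586, minus strand: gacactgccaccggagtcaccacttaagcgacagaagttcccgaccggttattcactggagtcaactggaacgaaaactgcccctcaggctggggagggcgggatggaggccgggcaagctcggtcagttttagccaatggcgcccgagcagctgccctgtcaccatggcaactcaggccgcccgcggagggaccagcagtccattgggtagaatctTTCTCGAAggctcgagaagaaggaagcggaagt
Dnajb1, chr8:83607925-83608174, plus strand: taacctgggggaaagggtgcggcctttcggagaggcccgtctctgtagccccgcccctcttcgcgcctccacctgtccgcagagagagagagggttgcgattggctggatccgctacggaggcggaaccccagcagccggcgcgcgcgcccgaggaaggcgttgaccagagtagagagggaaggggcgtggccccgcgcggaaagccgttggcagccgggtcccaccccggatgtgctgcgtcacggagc
Hspb8, chr5:116422865-116423114, minus strand: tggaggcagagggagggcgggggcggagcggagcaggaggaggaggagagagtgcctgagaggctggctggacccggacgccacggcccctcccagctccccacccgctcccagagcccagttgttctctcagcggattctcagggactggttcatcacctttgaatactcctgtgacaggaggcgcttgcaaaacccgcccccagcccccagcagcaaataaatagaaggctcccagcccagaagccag

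The windows of Hspa1a and Hspa1b had 247 of 250 bases in common, and each held 1 such pair at the same place, starting at position -104 from the transcription start. Hspb1 had 2 pairs, starting at -117 and -97. Hsph1 had 1, starting at -33 from the start site shown. The windows of Dnajb1, Hspb8, Bag3 and Hspb7 had 0. Of the start sites listed for Hspb6, the second had 1 pair, starting at -120, and the first had 0. Windows, 12 in all, were found for 9 of the 10 members, Cryab being the exception. A pair lay in at least 1 window of 5 of the 9 genes. Of all 32851 windows of this length, 12.8% held at least 1 pair and 1.46% at least 2, which are shares per window and not per gene. No member held 3 units in a row, in alternating orientation with 2 bases between them, on either strand, which 0.466% of all windows did. The 5 genes with a pair include 4 that were called higher and Hsph1, which was called lower. Among the 4, Hspa1a and Hspa1b have nearly the same window and are not independent. A match of letters is a description and not a binding site.

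The Hspa1a probe (A_52_P82741, chr17:35106766-35106825, minus strand) had relative signals of 20.2, 18.5, 19.6 and 17.3 in knockout hearts, against 0.93, 1.27 and 1.62 in wild type hearts. Every knockout array was far above every wild type array, and on the log2 scale the knockout values lay closer together. The knockout mean on that scale was 4.24 ± 0.10 (SD, n = 4) and the wild type mean 0.32 ± 0.40 (SD, n = 3). Hspa1a rose by 3.92 (SE 0.19, adjusted p = 2.2e-05, limma), which placed it 80th by fold change among 22976 genes.

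The Hspa1b probe (A_66_P118021) had 4.2, 3.4, 2.38 and 3.08 in knockout hearts, against 0.383, 0.438 and 0.766 in wild type hearts. Wild Type_189 was the highest of the wild type arrays for both genes and still below every knockout array. Hspa1b rose by 2.67 (SE 0.28, adjusted p = 0.00039, limma). The files place 32 of this probe's 60 bases, at chr17:35093374-35093405 on the minus strand. The 2 probes share no run of more than 5 bases, but the genes are close copies, and binding of each probe to the transcript of the other gene was not tested. In every alternative setting, 19 in all, both genes were called higher. The log2 fold change lay between 3.71 and 4.49 for Hspa1a and between 2.47 and 3.23 for Hspa1b.

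Along chromosome 17, by the order of protein-coding genes in RefSeq GRCm38.p6, Hspa1a lies between Hspa1b and Hspa1l, the gene of a testis HSP70. Hspa1l had 1.28, 1.34, 2.78 and 1.39 in knockout hearts, against 0.335, 0.35 and 0.281 in wild type hearts, and rose by 2.33 (SE 0.28, adjusted p = 0.00069, limma). All 3 neighbouring HSP70 genes were thus higher on every knockout array. Neu1, a lysosomal sialidase gene on the other side of Hspa1b, gave 0.20 (SE 0.12, adjusted p = 0.21, limma) and was not called.

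Among the cochaperones of HSP70, 2 were lower and 1 was not called. Hsph1, an HSP110 protein that exchanges the nucleotide of HSP70, had 3.02, 2.87, 5.88 and 4.36 in knockout hearts, against 8.9, 9.77 and 11.6 in wild type hearts (A_55_P2176963, chr5:150419744-150419803, minus strand). Mutant_187 was the highest knockout array and still below every wild type array. Hsph1 fell by 1.38 (SE 0.26, adjusted p = 0.0053, limma).

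Of the other 2 Hsph1 probes, the brighter fell as well. A_55_P2003513 (chr5:150420110-150420169, minus strand) had 0.99, 0.891, 1.64 and 1.31 in knockout hearts, against 2.67, 3.11 and 3.64 in wild type hearts, a log2 fold change of -1.41. The dimmest, A_55_P2931347 (chr5:150434622-150434681, minus strand), stayed below the well-above-background limit on all knockout arrays and was at least 1.32-fold lower. It passed the filter on dim probes through the wild type arrays alone, so its fall is no further support. Of the 14 member probes 5 were called higher and 5 lower, the latter with that probe included, against 16.5% and 24% of all kept probes.

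Dnajb1, an HSP40 protein that works with HSP70, had 9.2, 11.9, 11.1 and 10.4 in knockout hearts, against 14.7, 14.9 and 13.8 in wild type hearts (A_51_P153486, chr8:86135660-86135719, plus strand). The groups did not overlap. Dnajb1 fell by 0.45 (SE 0.12, adjusted p = 0.022, limma). The call was lost without Wild Type_181, Wild Type_183 or Wild Type_189 (adjusted p = 0.076, 0.082 and 0.059, limma), and without Mutant_188 (adjusted p = 0.05, limma). It was also lost with quantile normalization, normexp and the percentile over bright probes, at -0.29, -0.27 and -0.33 (adjusted p = 0.11, 0.089 and 0.074, limma), so that Dnajb1 was called lower in 11 of the 19 alternatives. With scaling to spike-in RNA, which moved the median of all genes to 0.44, Dnajb1 gave 0.12 (adjusted p = 0.68, limma), so its fall is relative to the 75th percentile.

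Bag3, the cochaperone that joins HSP70 to Hspb8 and steers damaged filament proteins to autophagy, had log2 relative signals of 7.51, 7.20, 7 and 7.07 in knockout hearts, against 6.87, 6.77 and 6.79 in wild type hearts (A_55_P2796612, chr7:135690420-135690479, plus strand). Every knockout array was above every wild type array, Mutant_175 most. The log2 fold change was 0.38 (95% interval 0.044 to 0.72, adjusted p = 0.068, limma), which was not called. It was called in 8 of the 19 alternatives, among them quantile normalization at 0.60, normexp background correction at 0.61 and spike-in scaling at 0.95 (adjusted p = 0.015, 0.0079 and 0.0074, limma). The percentile over bright probes gave 0.50 (adjusted p = 0.025, limma), and leaving out Mutant_187 gave 0.45 (adjusted p = 0.046, limma).

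Among the small heat shock proteins, Hspb1 (HSP25 in mouse, which binds actin filaments and damaged filament proteins) had the largest fold change. It had 538, 467, 433 and 575 in knockout hearts, against 201, 205 and 234 in wild type hearts (A_55_P2039284, chr5:136365366-136365425, plus strand). The lowest knockout array was well above the highest wild type array. Hspb1 rose by 1.23 (SE 0.14, adjusted p = 0.0005, limma) and was called higher in all 19 alternatives, at 1.17 to 1.80. Its mean spot signal was 63.9% to 69.2% of the saturation value on knockout arrays and 17% to 21% on wild type arrays. The part of the scanner's ceiling in this difference was not tested.

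Hspb6, a small heat shock protein of heart and smooth muscle also called HSP20, had 258, 270, 327 and 307 in knockout hearts, against 208, 224 and 180 in wild type hearts (A_55_P2039289, chr7:31340398-31340457, plus strand). Hspb6 rose by 0.51 (SE 0.14, adjusted p = 0.021, limma). The call was lost without Wild Type_181, Wild Type_189 or Mutant_188 (adjusted p = 0.06, 0.09 and 0.051, limma). Its other probe (A_51_P322022, chr7:31339385-31339528, plus strand) had 37.8, 41.7, 61.3 and 42.8 in knockout hearts, against 30.7, 29.1 and 24.0 in wild type hearts. That probe rose by 0.70 (adjusted p = 0.022, limma over all probes), so both probes moved the same way.

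Cryab, the alpha B-crystallin that guards desmin and titin, had 699, 593, 581 and 756 in knockout hearts, against 487, 527 and 503 in wild type hearts (A_55_P1964408, chr9:50564566-50564625, plus strand). No knockout array overlapped the wild type range. The log2 fold change of 0.37 (95% interval 0.065 to 0.68, adjusted p = 0.055, limma) was not called, but it was called in 8 of the 19 alternatives, among them leaving out Mutant_187 (adjusted p = 0.037, limma). Its spots were near the scanner's ceiling, with a mean signal of 80.9% to 85.1% of the saturation value on knockout arrays and 42.1% to 43.9% on wild type arrays. Before scaling, its processed signal was 647614, 667720, 665895 and 632729 on knockout arrays, against 347514, 331709 and 346963 on wild type arrays. After quantile normalization it gave 0.94 (adjusted p = 0.0004, limma).

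Hspb7, a small heat shock protein found chiefly in heart and skeletal muscle, had 560, 586, 600 and 791 in knockout hearts, against 682, 722 and 680 in wild type hearts (A_55_P2830306, chr4:140981071-140981130, plus strand). Mutant_188 was above, and the other knockout arrays below, all wild type arrays. The log2 fold change was -0.15 (95% interval -0.48 to 0.19, adjusted p = 0.45, limma). This probe was at 65.3% to 91.7% of the saturation value on knockout arrays and 60.2% to 65.0% on wild type arrays.

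A second, dimmer Hspb7 probe (A_51_P346445, chr4:140980355-140980414, plus strand) pointed the other way. It had 67.1, 79.9, 95.8 and 120 in knockout hearts, against 65.7, 66.4 and 61.9 in wild type hearts, at no more than 14.3% of the saturation value. Every knockout array was above the wild type range, Mutant_175 by the least. Its log2 fold change of 0.45 (adjusted p = 0.11, limma over all probes) was not called. After quantile normalization the brighter probe gave 0.43 (adjusted p = 0.04, limma), and with spike-in scaling 0.42 (adjusted p = 0.067, limma), so no direction is given for Hspb7. The part of the scanner's ceiling in these differences was not tested.

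Hspb8 (HSP22), the partner of Bag3, had 27.9, 25, 30.6 and 33.7 in knockout hearts, against 45.6, 42.7 and 47.8 in wild type hearts (A_51_P464387, chr5:116859063-116859122, minus strand). All knockout arrays were below all wild type arrays. Hspb8 fell by 0.64 (SE 0.13, adjusted p = 0.0073, limma), and it was called lower in 18 of the 19 alternatives. The exception was spike-in scaling, at -0.07 (adjusted p = 0.74, limma).

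**Figure D2:**
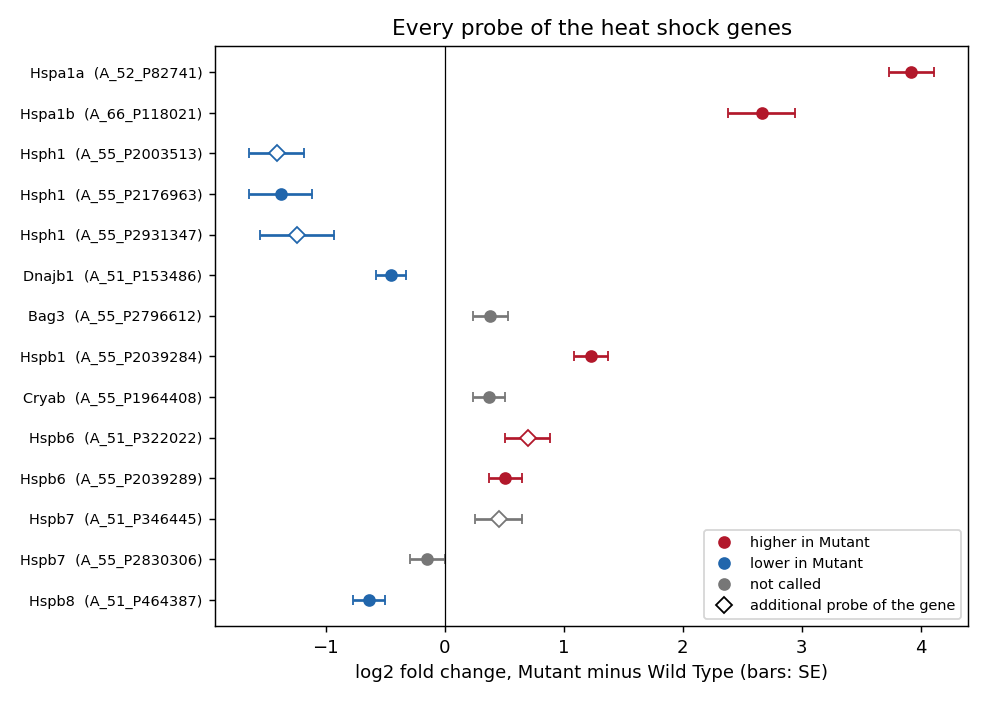
Log2 fold change, knockout (Mutant) minus wild type, with its SE for each of the 14 probes. Filled circles are the probes that stand for a gene and open diamonds additional probes. The 3 Hsph1 probes lie together below 0, while the 2 Hspb7 probes lie on opposite sides. The dimmest Hsph1 probe, A_55_P2931347, has only a bound, so its point is not a measured difference.

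**Figure D3:**
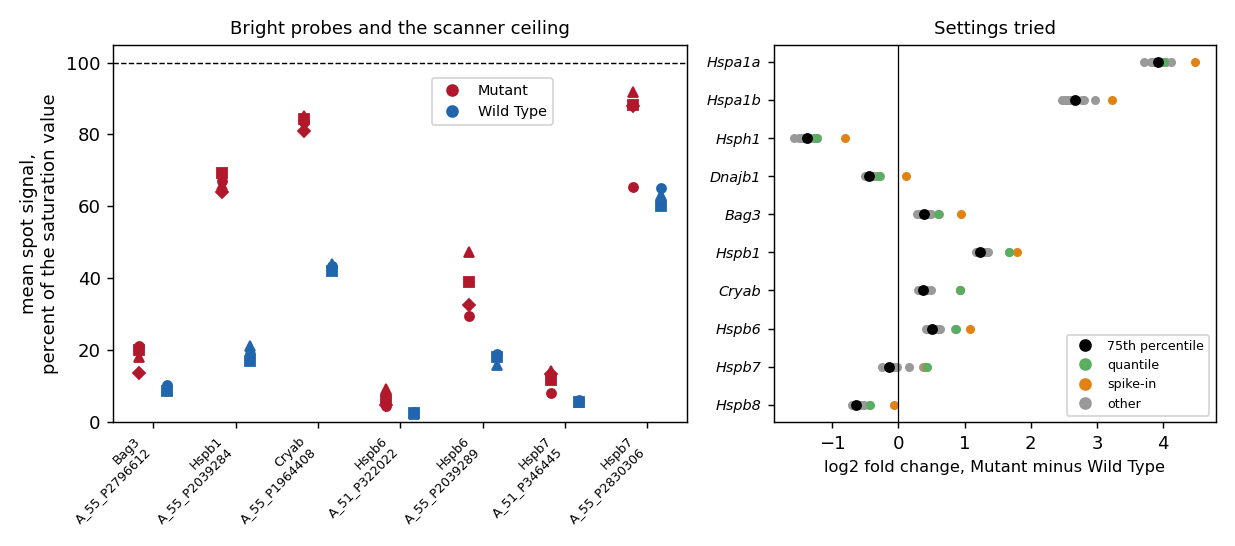
Left, mean spot signal as a percent of the saturation value for the bright probes on knockout (Mutant, red) and wild type (blue) arrays, with the dashed line at saturation. Right, the log2 fold change of each gene under every setting, with Hspa1a, Hspa1b, Hspb1, Hspb6, Bag3 and Cryab above 0 throughout, Hsph1 and Hspb8 below 0 throughout, and Dnajb1 and Hspb7 on both sides.

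The genes whose pattern over the 7 arrays lay closest to Hspa1a, each taken relative to its own wild type mean on the log2 scale, were Slc38a4, an amino acid transporter, and Tgfb3, a growth factor, among genes with a measured wild type level. Their root mean square distances were 0.162 and 0.255. Slc38a4 rose by 3.84 and Tgfb3 by 3.96. The kinase gene Dclk3 also came among the nearest 3, but it was not well above background in wild type, so that its distance is not a measured value, and it is given only as at least 9.24-fold higher. The genes closest to Hspb7, on its brighter probe only, were Rplp1 and Rps14, of the ribosome, and Pura. Their distances were 0.050, 0.060 and 0.065, and none of these 3 was called. The dimmer Hspb7 probe, which pointed the other way, was not used for this. Among the members, Bag3 and Cryab were the closest to each other, at 0.172.

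Other chaperone and related genes were counted in 11 lists. The relatives of HSP70 gave 3 higher and 1 lower among 9, at a median of 0.07 on the log2 scale. Hspa4, an HSP110 protein like Hsph1, had 142, 95.4, 115 and 96.4 in knockout hearts, against 32.6, 32.3 and 33.6 in wild type hearts, and rose by 1.75 (SE 0.16, adjusted p = 0.00022, limma). All 4 of its probes were called higher, but A_52_P571987 passed the filter on dim probes through the knockout arrays alone. The others, well above background on all arrays, contrast with the Hsph1 probes that were so as well. Besides Hspa1l, Hspa2 rose by 0.76, while Hspa12a, a distant relative, fell by 2.07. Without Mutant_175, 2 genes of this list were lower, and spike-in scaling gave 5 higher and 1 lower.

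The list of HSP90 and its cochaperones had 2 higher and 9 lower of 15, and their median was -0.61. Fkbp4, an immunophilin that works with HSP90 on steroid receptors, had 8.43, 11.3, 15.0 and 12.7 in knockout hearts, against 76.1, 77.1 and 74.9 in wild type hearts, and fell by 2.72 (SE 0.19, adjusted p = 8.2e-05, limma). Cdc37, which brings kinases to HSP90, fell by 1.09 and Ahsa1, which activates its ATPase, by 0.92. Smyd1, a methyltransferase of muscle, fell by 1.21 on its brighter probe. The other Smyd1 probe gave 0.20 (adjusted p = 0.39, limma over all probes) and was not called. Without Wild Type_189, 1 was higher and 5 lower, and without Wild Type_181, 1 was higher. Spike-in scaling gave 4 higher and 2 lower.

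The other genes listed as small heat shock proteins had 3 higher and 0 lower of 5, at a median of 0.66. Hspb2, which adjoins Cryab on the chromosome and works in muscle with Hspb3, had 119, 103, 95.3 and 102 in knockout hearts, against 56.2, 53.7 and 53.9 in wild type hearts. It rose by 0.94 (SE 0.12, adjusted p = 0.00074, limma), Hspb3 by 0.66 and Hspb11 by 0.73. Hspb11 is an intraflagellar transport protein in spite of its name. Without Mutant_175 or Mutant_188, 1 gene of this list was lower.

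The DNAJ cochaperones of the cytosol had 1 higher and 1 lower of 11, and their median was 0.02. Dnajb4 rose by 0.90 and Dnaja4 fell by 1.79 (adjusted p = 9.3e-05, limma), and of 5 Dnajb4 probes 4 were called higher. Without Mutant_175, 2 of the list were lower, with array weights 3 were lower, and spike-in scaling gave 5 higher and 1 lower. BAG proteins and other exchange factors had 0 higher and 3 lower of 9, at a median of -0.24. Stub1, the ubiquitin ligase CHIP that marks clients of HSP70, fell by 0.67, Bag6 by 0.48 and Bag1 by 0.45. Of the 4 Bag6 probes only this one was called, and the others gave -0.20, -0.095 and -0.006 (adjusted p = 0.37, 0.71 and 0.98, limma over all probes). With Wild Type_181, Wild Type_183 or Wild Type_189 left out, 1 gene of the list was lower, and spike-in scaling gave 4 higher and 0 lower.

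Heat shock factors and their regulators had 1 of 5 measured higher and 4 lower, with a median of -0.55. Hsf3 and Hsf5 were not among the genes tested. Hsf1, the main activator of the heat shock response, had 1.99, 2.72, 4.33 and 3 in knockout hearts, against 5.75, 5.89 and 6.10 in wild type hearts, and fell by 1.03 (SE 0.24, adjusted p = 0.012, limma). Hsf2 fell by 0.46 and Hsf2bp, which binds Hsf2, by 0.72, while Hsf4 rose by 0.75. Without Wild Type_181 or Wild Type_183, 2 were lower, and with spike-in scaling 0 were lower.

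Partners and clients of Bag3 had 7 higher and 2 lower of 15, and their median was 0.45. Flnc, filamin C, which Bag3 carries to autophagy in muscle, had 264, 327, 315 and 368 in knockout hearts, against 34.5, 32.6 and 31.6 in wild type hearts, and rose by 3.27 (SE 0.14, adjusted p = 1.3e-05, limma). Desmin (Des) rose by 1.23 on its brighter probe, while its other probe was called lower, and Amotl1 rose by 1.07. Map1lc3a, a protein of autophagosome membranes, fell by 1.11. Without Wild Type_183, 3 were higher, and spike-in scaling gave 9 higher and 1 lower.

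Mitochondrial chaperones and proteases had 1 higher and 11 lower of 12, at a median of -0.85. Hspd1 (HSP60) had 39.9, 29.3, 35.1 and 36.8 in knockout hearts, against 92.6, 93.7 and 100 in wild type hearts, and fell by 1.45 (SE 0.13, adjusted p = 0.00022, limma). The J-domain protein gene Dnaja3 fell by 1.25 and the protease genes Clpp and Lonp1 by 1.12 and 1.01, while a second Dnaja3 probe gave -1.14 (adjusted p = 0.063, limma over all probes). Spike-in scaling gave 1 higher and 3 lower. Chaperones and stress genes of the endoplasmic reticulum had 1 higher and 5 lower of 16, and their median was -0.34. The 1 higher was Ddit3, a transcription factor and not a chaperone, at 0.55 (adjusted p = 0.0079, limma). Herpud1 fell by 2.02, Hspa5 (BiP) by 1.14, calnexin (Canx) by 0.97 and Hsp90b1 by 0.76, and spike-in scaling gave 3 higher and 1 lower.

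The chaperonin TRiC, which folds actin and tubulin, had 2 of 9 subunits higher and 1 lower, with a median of -0.08. Cct8 and Cct2 rose by 0.48 and 0.38 and Cct4 fell by 0.36. Of the 4 Cct4 probes only this one was called, the others giving -0.94, -0.23 and -0.087 (adjusted p = 0.17, 0.28 and 0.65, limma over all probes), and of 3 Cct8 probes 2 were called higher. Spike-in scaling gave 4 subunits higher and 0 lower. Without Wild Type_181, Wild Type_183 or Wild Type_189, 0 subunits were called, without Mutant_188 0 were higher, without Mutant_182 0 were lower, and without Mutant_175 2 were lower. Immediate early genes, which respond within minutes to stress and to handling of tissue, had 9 higher and 2 lower of 18, at a median of 0.55. Egr2 rose by 2.94, Egr3 by 1.97, Myc by 1.79 and Fos by 1.17. Nr4a1 fell by 1.58 and Dusp1 by 1.03 (adjusted p = 0.0061 and 0.013, limma), and 7 of the list were not called. Without Wild Type_183 1 was lower, while spike-in scaling gave 13 higher and 1 lower. The part of such a response in the rise of Hspa1a and Hspa1b was not tested.

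**Figure D4:**
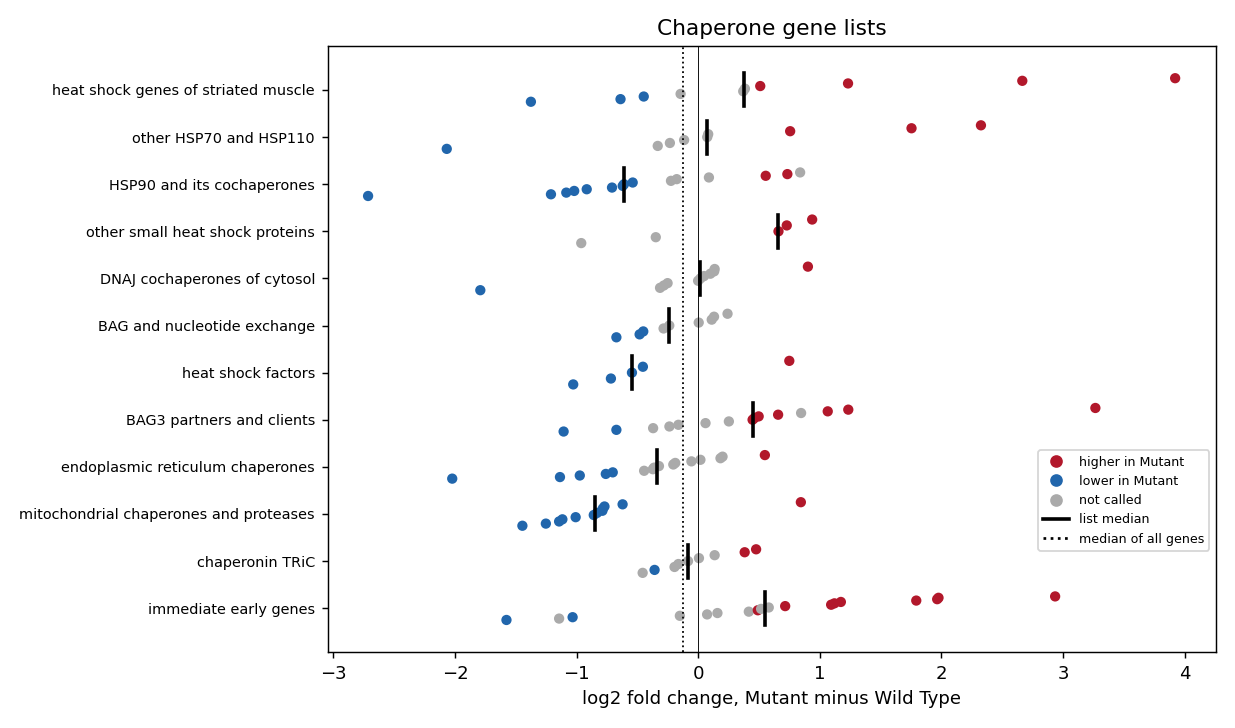
Log2 fold change, knockout (Mutant) minus wild type, of every measured gene in the heat shock set and in the 11 lists of chaperone and related genes, 1 point a gene, coloured by call. Thick bars are list medians and the dotted line is the median of all genes, -0.12, with the mitochondrial list lying lowest at -0.85.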

How the data were processed

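Per the file headers, Agilent's Feature Extraction (version 10.7.3.1) read the spots, and the deposited intensity used is its background-corrected processed signal, with its flags for background, saturation and outliers. The authors' deposited value table, an alternative here, held the same intensity unscaled: 99.6% of its cells lay within 0.01 (log2) of the scanner value, and its column medians were 65, 82.6, 80.3 and 60.8 on knockout and 47.2, 45.6 and 50.4 on wild type arrays, its scale being linear. Other flags, per the file headers, are 0 or 1.

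Outlier spots (82 to 146 per array) were left out. Spots of a probe were averaged as log2 values, and the 75th percentile of each array was subtracted. The filter kept 34490 probes (60.9%), those that 3 or more arrays show well above background, and the brightest stood for its gene. Genes were named through the probe's accession (32994 probes matched to RefSeq GRCm38.p6), else by the file's name. All 7 arrays were fitted with limma 3.58.1 (R 4.3.3) with no covariate and a threshold of 0.05. Simulated data had these arrays' spread, 22941 genes and 200 changed genes in each of 5 runs. Of genes changed by 1 and 2 (log2), 48.2% and 82.8% were called, and 5.5% of calls were false. In the real data 42.1% of genes were called, a far larger share, so these rates may not carry over. Figures used matplotlib 3.10.9.

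A probe not well above background in a group has only a bound, against the lowest signal well above background. The number of arrays limits precision. The genes named are all members, Smarca4, Smarca2, up to 4 called genes with the smallest p of each list, and the 3 genes nearest Hspa1a and Hspb7. Ddit3, Nr4a1 and Dusp1 are named as well because they were called against the direction of most calls in their lists. This was not done for every such gene. Grpel2 of the mitochondrial list rose by 0.844 and Unc45a of the HSP90 list by 0.555. Fosl1 is named because it has only a bound. The members and lists were chosen with earlier results of these data known.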

Additional observations from a re-analysis of the deposited data

How the results depend on the processing

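Over the 10 members and 19 alternatives, 158 fold changes kept direction and side of the threshold, and 5 changed direction. Of the others, which kept direction, 16 became called and 11 lost the call. Among the 5, Hspb7 also became called with quantile normalization and normexp (adjusted p = 0.04 and 0.048, limma). Dnajb1 also lost its call, with spike-in scaling. The 7 calls under the 75th percentile became 7 higher and 2 lower after quantile normalization and again 7 higher with normexp (offset 50). Spike-in scaling (7 probes) gave 6 members higher and 1 lower, 8 probes higher and 2 lower, and 8515 genes higher and 1707 lower, against 3749 and 5934. It moved the median of all genes to 0.44, from -0.12, and the share of calls that were higher was 83.3%, against 38.7%, 44.9% after quantile normalization and 49.4% with the percentile taken over bright probes alone. Reversed values were Dnajb1 at 0.12 (spike-in scaling), Hspb7 at 0.43 (quantile), 0.38 (normexp), 0.42 (spike-in) and 0.15 (0.155, mean of probes), and Smarca2 at -0.046 (mean of probes). Leaving out 1 array gave 3 to 6 members higher and 2 to 3 lower, and 2645 to 4529 genes higher and 4089 to 6777 lower. The cause of these differences was not tested. No paired analysis was possible because no knockout and wild type samples share a number. Percentile scaling hides a difference in total messenger RNA between groups.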

Other observations

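The constitutive counterparts of the inducible chaperones, chosen after their values were seen, are given here. Hspa8, the constitutive HSP70, had log2 relative signals of 7.66, 7.25, 7.38 and 7.62 in knockout hearts, against 7.25, 7.45 and 7.51 in wild type hearts, a difference of 0.07 (SE 0.14, adjusted p = 0.71, limma). Of the HSP90 genes, the inducible Hsp90aa1 rose by 0.73 (adjusted p = 0.0046, limma), while the constitutive Hsp90ab1 fell by 0.54 (adjusted p = 0.0073, limma). Whether these differ from the changes of Hspa1a or Hsph1 was not tested.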
